A study of Mus musculus with 4 samples.

Results

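The 41 genes described here mark the phases of the cell division cycle, and they were chosen by symbol from the 28693 genes of the deposited count tables. The S phase list holds 15 genes, from *Mcm2* to *Ccne2*, which load, build or drive DNA replication. The G2/M list holds 18 genes, from *Mki67* to *Tpx2*, whose transcripts peak as cells prepare for and pass through mitosis. The other 8 are 3 D-type cyclins and 5 inhibitors of cyclin-dependent kinases, and all 41 symbols were found. UMI counts (unique molecular identifiers, each standing for 1 captured transcript) from 10x Genomics single-cell libraries of mouse mammary gland were used, with 4 libraries of live sorted cells, 1 per mouse. The 2 CTL mice were Lats1f/f;Lats2f/f;R26-lsl-EYFP without Cre, with 1 reporter allele each. The 2 LATS1/2-KO mice also carried Krt8-CreERT2, and their EYFP reporter was heterozygous in replicate 1 and homozygous in replicate 2. All 4 were adult nulliparous females that received tamoxifen, 2 mg on each of 5 days, and glands were taken 7 days after the last dose, so the floxed alleles and tamoxifen were shared by both groups. Cre driven by the *Krt8* promoter acts in luminal cells, and EYFP marks cells in which Cre has acted.

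Cells that enter division pass from G1 into S phase, copy their DNA, and divide after G2. D-type cyclins bind CDK4 and CDK6 and inactivate the retinoblastoma protein, which releases E2F factors that switch on replication genes. The mitotic genes follow later through the MuvB complex with B-MYB and FOXM1, many of them from promoters with CCAAT boxes and a CHR element. The INK4 proteins (*Cdkn2a*, *Cdkn2b*) block CDK4 and CDK6, while p21 (*Cdkn1a*), p27 (*Cdkn1b*) and p57 (*Cdkn1c*) block cyclin and kinase complexes more widely. LATS1 and LATS2 are the Hippo pathway kinases that hold YAP and TAZ inactive. The adult virgin mammary gland divides little outside the hormone cycle.

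Of 20324 barcodes, 18200 were kept, and their median depth ran from 5962.5 to 10141 UMIs per library. Cells were assigned to lineages from marker genes, none of which is a cell cycle gene listed here. Levels are CPM, the UMIs of a gene per 1000000 UMIs of the gate in that library. *Lats1* in luminal ER- cells was at 25.6 and 25.6 CPM in CTL and at 17.9 and 20.7 in LATS1/2-KO (log2 fold change -0.73, adjusted p = 0.00165), while *Lats2* stood at 15.4 and 16.9 against 27.0 and 30.4 (log2 fold change 0.51, adjusted p = 0.00785). Which exons the floxed alleles lose is not given in the sources used here, so these counts do not check the deletion. EYFP was detected at 2000 UMIs per cell in 0.0923 and 0.184% of CTL epithelial cells and in 10.0 and 14.0% of those of LATS1/2-KO. The luminal ER- gate held all 10 of its markers in every library, summing to 15365 and 18451 CPM in CTL and to 12371 and 14079 in LATS1/2-KO. The 9 basal markers summed to 38.5 and 34.0 CPM in that gate in CTL and to 874 and 607 in LATS1/2-KO, where the 8 fibroblast markers and the 10 macrophage markers were higher as well (18.8 and 48.1 against 260 and 246, and 13.7 and 17.04 against 55.6 and 61.2). A further 1152 and 960 epithelial cells of the LATS1/2-KO libraries lay under the marker limits of all 3 lineages, against 25 and 10 in CTL. They are called epithelial cells low in lineage markers, though markers were not absent from them. Any pair of libraries shared 4 to 17 cell barcodes, with 17 between the LATS1/2-KO libraries.

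The promoters below hold letters of the E2F and CHR motifs, which are known from S phase and G2/M genes. They are shown as a description, and no link between the letters and the changes in LATS1/2-KO was tested. Sequences are from RefSeq on GRCm38.p6, 5′ to 3′ along the gene's strand, up to 250 bases that end just before the transcription start or, for *Cdk1*, before the first annotated exon. Each motif was searched on both strands in the 250 bases before the start. The E2F letters were TTTCCCGC, TTTGGCGC, TTTCGCGC and TTTGCCGC, the CHR letters TTTGAA and TTCGAA, and the CCAAT box CCAAT. Of the 41 genes, 32 had an entry, with 36 entries in all. Capitals mark E2F letters in *Mcm5*, at chr8:75109259-75109508 on the plus strand, and *Mcm6*, at chr1:128359706-128359955 on the minus strand. In *Cdk1*, at chr10:69352939-69353162, and *Ccnb2*, at chr9:70421555-70421804, both on the minus strand, capitals mark the CHR letters.
Mcm5: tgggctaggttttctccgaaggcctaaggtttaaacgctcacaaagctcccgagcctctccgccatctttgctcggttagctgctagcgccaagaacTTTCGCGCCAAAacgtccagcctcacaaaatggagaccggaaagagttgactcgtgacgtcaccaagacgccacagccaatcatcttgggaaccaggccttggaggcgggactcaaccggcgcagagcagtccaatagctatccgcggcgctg
Mcm6: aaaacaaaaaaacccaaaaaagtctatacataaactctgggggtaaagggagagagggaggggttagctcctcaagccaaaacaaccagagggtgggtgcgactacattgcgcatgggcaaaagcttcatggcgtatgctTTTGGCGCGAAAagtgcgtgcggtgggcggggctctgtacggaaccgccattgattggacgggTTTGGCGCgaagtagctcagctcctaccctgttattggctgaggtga
Cdk1: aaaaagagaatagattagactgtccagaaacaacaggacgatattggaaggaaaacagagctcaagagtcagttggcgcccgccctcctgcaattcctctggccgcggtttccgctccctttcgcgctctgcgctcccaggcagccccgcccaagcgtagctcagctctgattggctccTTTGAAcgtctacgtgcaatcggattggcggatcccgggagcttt
Ccnb2: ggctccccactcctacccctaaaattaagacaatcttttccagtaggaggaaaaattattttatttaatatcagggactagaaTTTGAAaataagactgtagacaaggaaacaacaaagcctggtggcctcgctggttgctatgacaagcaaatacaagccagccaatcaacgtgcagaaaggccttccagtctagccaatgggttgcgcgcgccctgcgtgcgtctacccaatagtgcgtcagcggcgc
The first E2F letters of *Mcm5* began 153 bases before the start and overlapped a reverse-strand copy that began at 149. In *Mcm6* they began at 110 and 47, with a reverse-strand copy at 106 that overlaps the one at 110. The CHR letters began at 71 in *Cdk1*, with a further copy at 15 inside the first exon that is not printed, and at 167 in *Ccnb2*, whose window also held CCAAT at 87, 54 and 21. E2F letters were in 4 of the 13 S phase entries (30.8%) and 1 of the 15 G2/M entries, against 1.86% of all 32851 promoters. CHR letters were in 7 of the 15 G2/M entries (46.7%) and 2 of the 13 S phase entries, against 17.1% of all promoters. The CCAAT box was in 14 of the 15 G2/M entries (93.3%) and 9 of the 13 S phase entries, against 33.8%. The letters GGAATG, bound by the TEAD partners of YAP and TAZ, were in 1 entry of each phase list, against 12.6% of all promoters. These matches describe letters, not bound sites. For each phase list the genes shown had the largest change in luminal ER- cells among those with its motif, passing over *Mcm7*, *Cdc6* and *Ube2c*, in which no copy of the motif lies wholly before the first annotated exon.

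In luminal ER- cells, the luminal lineage that gives rise to milk-secreting cells, 35 of the 41 genes were higher in LATS1/2-KO and 1 was lower, and every G2/M gene was among the 35. G2/M genes changed most, with a median log2 fold change of 3.76, against 1.48 for the S phase genes and 0.01 for all genes tested. The test was edgeR's quasi-likelihood F test on UMIs summed per library, with p-values adjusted over all 13319 genes, 28.2% of which were called higher and 26.6% lower. Log2 fold changes are relative to the bulk of genes (TMM scaling), while CPM are shares of all UMIs. Scaling by library totals alone moved the median gene by 0.32 in luminal ER- cells, 0.21 in all epithelial cells, 0.13 in basal cells and -0.11 in fibroblasts, and by under 0.1 in the other gates tested.

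Within the S phase list, 13 of 15 genes rose in luminal ER- cells. *Mcm2* and *Mcm5*, subunits of the helicase that opens replication origins, were both low in CTL. *Mcm2* stood at 3.29 and 3.13 CPM in CTL and at 18.3 and 14.7 in LATS1/2-KO, a log2 fold change of 2.04 ± 0.183 (SE, adjusted p = 0.000179). *Mcm5* stood at 4.87 and 4.38 against 29.5 and 22.6 CPM (2.17 ± 0.177, adjusted p = 0.000125). *Mcm6*, of the same helicase, was abundant already in CTL at 24.7 and 26.5 CPM, and reached 50.3 and 43.4 (log2 fold change 0.55 ± 0.114, adjusted p = 0.00591). *Rrm2*, the subunit of ribonucleotide reductase made for S phase, had the largest change of the list. Its level went from 1.61 and 1.96 to 31.7 and 20.6 CPM, a log2 fold change of 3.55 ± 0.263 (adjusted p = 8.75e-05). The E-type cyclins, which drive entry into S phase, also rose. *Ccne1* stood at 3.15 and 3.33 against 11.6 and 8.21 CPM (1.29 ± 0.227, adjusted p = 0.00301), and *Ccne2* at 0.771 and 1.21 against 3.94 and 3.39 (1.57 ± 0.31, adjusted p = 0.00481). For each of these 6 genes replicate 1 was the higher of the LATS1/2-KO libraries, and both lay above CTL, a pattern that 57.6% of all genes tested showed in CPM. *Pcna*, the sliding clamp of DNA polymerase, was the exception at 44.6 and 47.8 against 47.5 and 49.0 CPM, with overlapping groups. Its log2 fold change was -0.26 (adjusted p = 0.0516), or 0.06 (adjusted p = 0.579) with library totals, and it was called lower with RLE factors (-0.27), the stricter gate (-0.28) and without the deepest 5% of cells (-0.34). The licensing factor *Cdt1* did not pass either (log2 fold change 0.21, adjusted p = 0.263), but did with library totals (0.53, adjusted p = 0.0170). With every cell of at least 2000 UMIs thinned to that depth and the others left out, *Mcm6* (adjusted p = 0.0693) and *Ccne1* (adjusted p = 0.188) were not called.

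The G2/M list moved as a whole in luminal ER- cells, by log2 fold changes from 3.04 (*Top2a*) to 5.54 (*Ccnb1*), and in all 18 genes both LATS1/2-KO libraries lay above both CTL libraries, as they did for 57.6% of all genes tested. *Mki67*, which coats mitotic chromosomes and is the usual label of proliferating cells, stood at 3.15 and 5.50 CPM in CTL and at 68.2 and 46.4 in LATS1/2-KO (3.42 ± 0.282, adjusted p = 0.000129). *Top2a*, the topoisomerase that untangles sister chromatids, stood at 5.53 and 8.04 against 84.9 and 54.1 CPM (3.04 ± 0.262, adjusted p = 0.000149). *Cdk1*, the kinase that starts mitosis, went from 1.47 and 3.33 to 95.9 and 52.0 CPM (log2 fold change 4.65 ± 0.415, adjusted p = 0.000173). Its partner *Ccnb1*, cyclin B1, had the largest change of all 41 genes. It held 11 and 22 UMIs in the CTL libraries, or 0.385 and 0.917 CPM, and reached 46.1 and 28.1 CPM (adjusted p = 6.94e-05). *Ube2c*, the ubiquitin-conjugating enzyme of the anaphase-promoting complex, was the most abundant of the list in LATS1/2-KO. It stood at 2.80 and 5.63 CPM in CTL and at 169 and 86.7 in LATS1/2-KO (4.62 ± 0.416, adjusted p = 0.000178). The mitotic kinase *Plk1* went from 0.420 and 0.542 to 17.7 and 12.7 CPM (4.66 ± 0.292, adjusted p = 5.04e-05). Replicate 1 was the higher of the LATS1/2-KO libraries for each of these 6 genes. The CTL range over the whole list was 0.385 to 8.04 CPM and the LATS1/2-KO range 7.004 to 169.

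**Figure D1:**
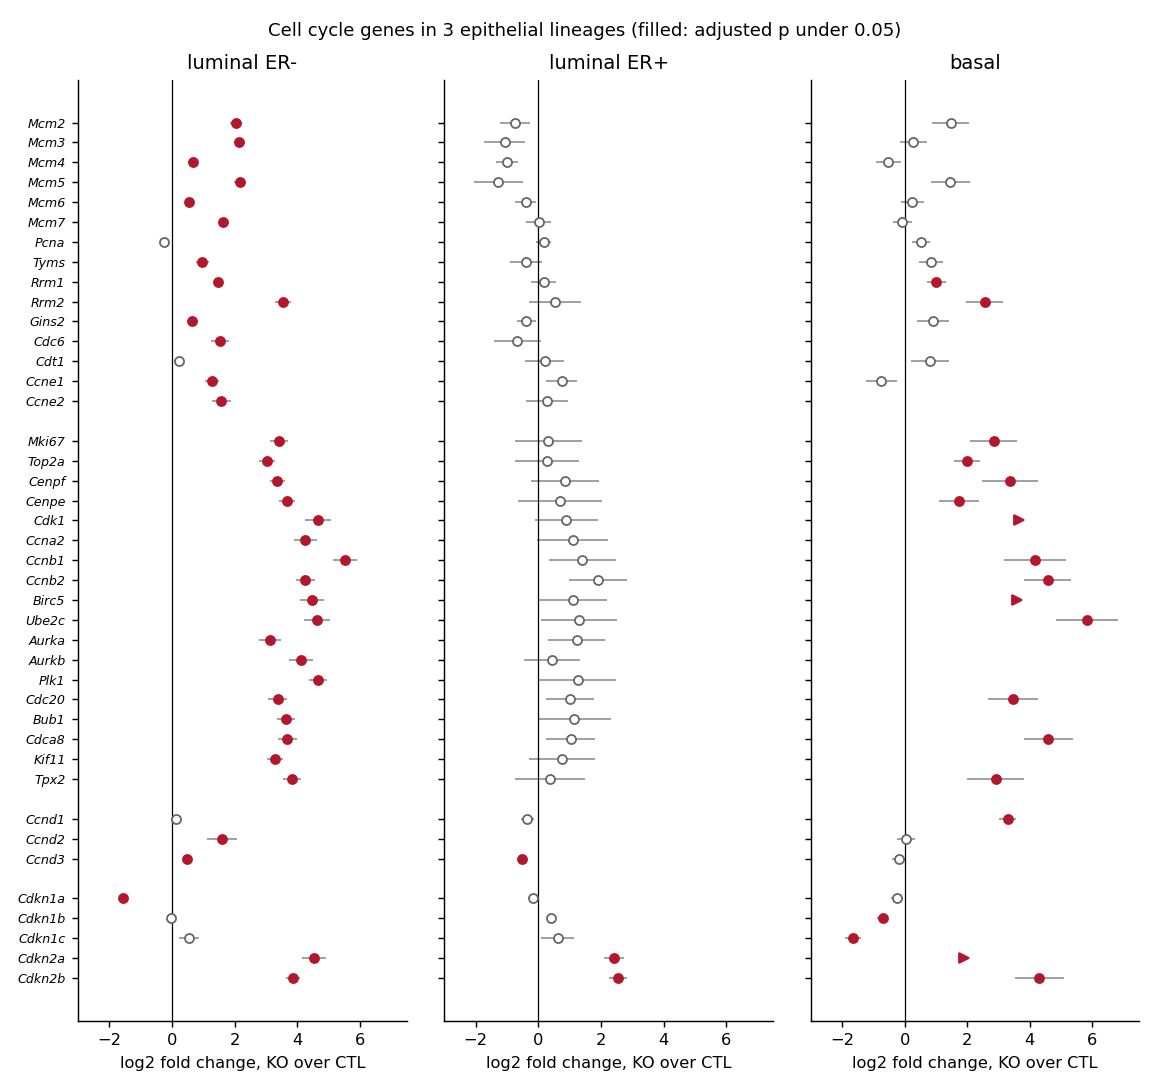
Log2 fold change of each cell cycle gene, LATS1/2-KO over CTL (x axis, edgeR), in luminal ER-, luminal ER+ and basal cells, with the genes grouped on the y axis as S phase, G2/M, D-type cyclins and inhibitors. Circles are estimates with their SE, filled where the adjusted p was under 0.05, and right-pointing triangles are lower bounds for genes with 0 UMIs in CTL. All 18 G2/M genes are filled in luminal ER- cells and none in luminal ER+ cells.

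The D-type cyclins and inhibitors did not move as blocks in luminal ER- cells. *Ccnd1*, cyclin D1, was the most abundant of these 41 genes in LATS1/2-KO luminal ER- cells. It stood at 176 and 223 CPM in CTL and at 308 and 233 in LATS1/2-KO, with no overlap but no call (log2 fold change 0.12, adjusted p = 0.571, and 0.44, adjusted p = 0.0573, with library totals). *Ccnd3* rose from 33.4 and 33.8 to 54.7 and 63.6 CPM (0.49 ± 0.106, adjusted p = 0.00683). *Ccnd2* was nearly absent, with 15 and 14 UMIs in CTL and 18 and 51 in LATS1/2-KO (log2 fold change 1.60 ± 0.47, adjusted p = 0.0244). That call was lost when 1 of 3 libraries was left out, and in DESeq2: adjusted p was 0.188 without LATS1/2-KO replicate 2, 0.0835 and 0.0545 without CTL replicate 1 or 2, and 0.0545 in DESeq2. *Cdkn1a*, encoding p21, was the only gene of the 41 to fall in this lineage. Its level was 336 and 393 CPM in CTL and 144 and 160 in LATS1/2-KO (-1.58 ± 0.119, adjusted p = 9.29e-05), and it fell with library totals as well (-1.26). *Cdkn1b*, encoding p27, stood at 74.1 and 63.8 against 81.9 and 85.6 CPM, with a log2 fold change of -0.04 (adjusted p = 0.764) that becomes 0.28 (adjusted p = 0.0540) with library totals. *Cdkn1c* was spread within LATS1/2-KO, at 10.9 and 24.1 CPM against 9.07 and 10.3 in CTL (0.54, adjusted p = 0.193). It was called without LATS1/2-KO replicate 1 (0.97, adjusted p = 0.00104).

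Both INK4 genes rose in the luminal ER- cells of LATS1/2-KO. *Cdkn2a*, at chr4:89274471-89294653, and *Cdkn2b*, at chr4:89306299-89311039, are protein-coding neighbours on the minus strand, 11645 bases apart (GRCm38, GENCODE M21). *Cdkn2a* held 3 and 6 UMIs in CTL and 69 and 97 in LATS1/2-KO, that is 0.105 and 0.250 against 4.69 and 5.57 CPM (log2 fold change 4.54 ± 0.396, adjusted p = 0.000159). *Cdkn2b*, encoding p15, stood at 1.05 and 1.04 against 21.9 and 16.6 CPM (3.87 ± 0.227, adjusted p = 4.04e-05). The *Cdkn2a* locus makes the INK4A and ARF transcripts, which share their last exons, so counts from transcript ends cannot tell them apart.

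**Figure D2:**
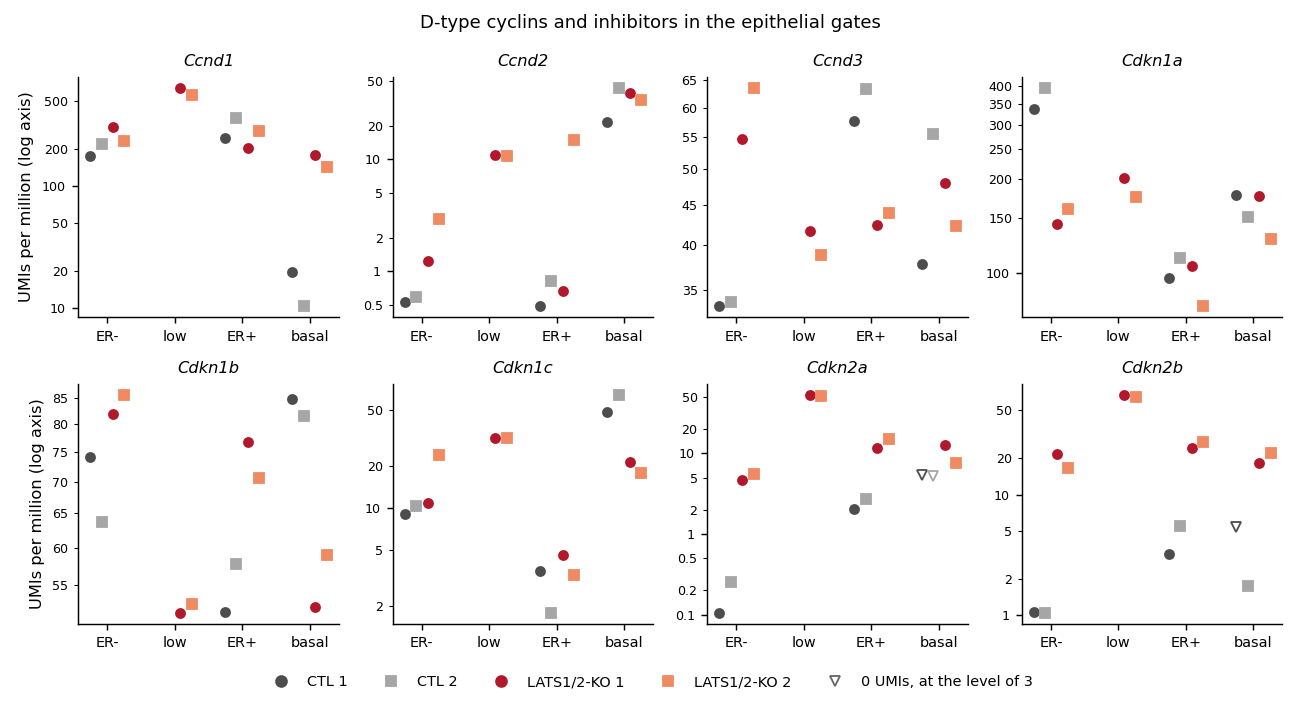
CPM (y axis, log scale, with a range of its own in each panel) of each D-type cyclin and inhibitor in the 4 libraries, by epithelial gate (x axis: luminal ER-, low in lineage markers, luminal ER+, basal). Hollow triangles are libraries with 0 UMIs, drawn at the level 3 UMIs would give, and gates with under 30 cells in a library are left out. *Cdkn1a* falls from 336 and 393 to 144 and 160 in luminal ER- cells, and *Cdkn2b* is higher in both LATS1/2-KO libraries than in both CTL libraries in luminal ER-, luminal ER+ and basal cells.

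The sums above do not say whether more cells were in the cycle or each held more transcripts. To give values per cell, each cell with at least 2000 UMIs was thinned to that depth and counted if at least 4 of the 18 G2/M genes were detected. Cells under that depth were left out, 168 of 5329 luminal ER- cells in CTL and 145 of 3263 in LATS1/2-KO. The 95% Clopper-Pearson intervals cover counting error only. Detection also rises with the transcripts a cell holds, so the share does not tell these possibilities apart. The share is a score over genes chosen with results known, so it is given with no test. In luminal ER- cells the share was 0.202% (6 of 2974 cells, interval 0.0741 to 0.439) and 0.274% (6 of 2187, 0.101 to 0.596) in CTL. In LATS1/2-KO it was 10.9% (164 of 1508, 9.35 to 12.6) and 5.71% (92 of 1610, 4.63 to 6.96). The intervals of both LATS1/2-KO libraries lay above those of CTL, and they did not overlap each other. Without thinning the shares were 0.550 and 0.581% against 22.1 and 12.5%. The G2/M UMIs at 2000 UMIs per cell summed to 26.1 and 32.5 CPM in CTL and 673 and 332 in LATS1/2-KO, and the S phase UMIs to 145 and 145 against 334 and 266. Endothelial cells, none of which reached 4 G2/M genes in any library (0 of 32, 30, 171 and 175 cells, with upper limits of 10.9, 11.6, 2.13 and 2.09%), give the share in a cell type where no G2/M gene passed the filter on low counts, at median depths of 3642.5 to 4432.5 UMIs against 6912.5 to 8218 in luminal ER- cells. Their G2/M UMIs at 2000 UMIs per cell nevertheless summed to 15.6 and 16.7 CPM in CTL (1 UMI each) and to 99.4 and 60.0 in LATS1/2-KO (34 and 21 UMIs), and the part of free RNA in the sums of other gates was not tested.

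**Figure D3:**
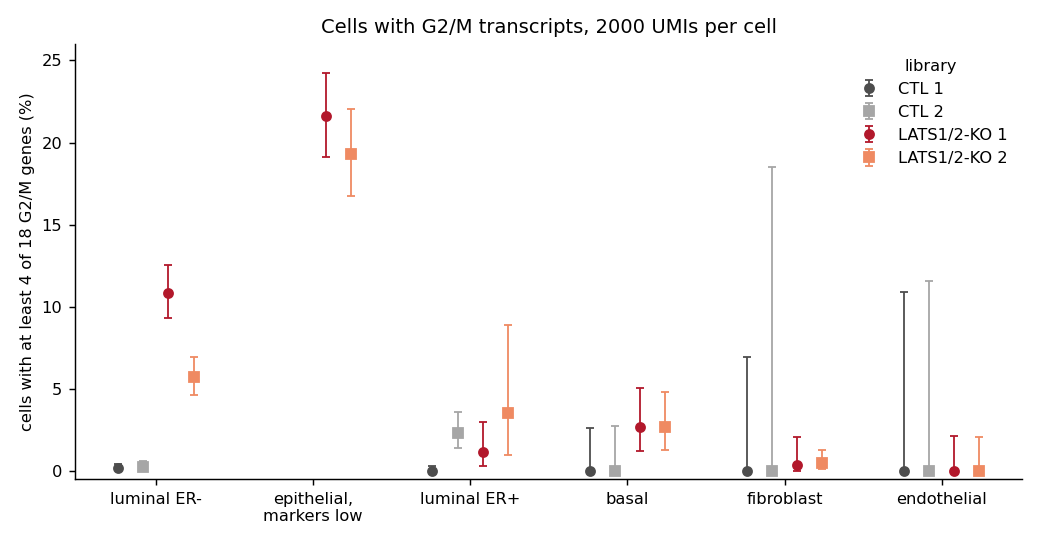
Share of cells with at least 4 of the 18 G2/M genes detected at 2000 UMIs per cell (y axis, %) by gate (x axis) and library, with 95% Clopper-Pearson intervals. Gates with under 18 cells at that depth in a library are left out for that library, which leaves the epithelial cells low in lineage markers with LATS1/2-KO only, at 21.6 and 19.3%.

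Epithelial cells low in lineage markers held the largest shares of any epithelial gate, 21.6% (225 of 1042 cells, 19.1 to 24.2) and 19.3% (169 of 876, 16.7 to 22.1) in LATS1/2-KO. CTL had 15 and 1 such cells at this depth, too few for a comparison. They made up 32.2 and 29.4% of the epithelial cells of LATS1/2-KO but 55.8 and 61.5% of those with at least 4 G2/M genes, while luminal ER- cells made up 40.7 and 33.5% of the latter. These cells carried all 8 epithelial markers at 24546 and 23339 CPM, the luminal ER- markers at 880 and 842, and the 9 basal markers at 3028 and 2429. The basal sums lay above the 874 and 607 CPM of LATS1/2-KO luminal ER- cells and below the 8619 and 9107 of LATS1/2-KO basal cells. The gate of the low-marker cells is set by levels under the limit of each lineage, so its lineage is not named. Their median depth, 10094 and 12024.5 UMIs, was above the 7413 and 7944 of LATS1/2-KO luminal ER- cells.

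The members' levels in the low-marker cells were alike in both LATS1/2-KO mice. *Cdk1* stood at 142 and 130 CPM, *Ube2c* at 227 and 192, and *Mki67* at 111 and 122. The D-type cyclins split, with *Ccnd1* at 638 and 562 CPM and *Ccnd2* at 10.9 and 10.7, but *Ccnd3* at 41.7 and 38.9. The INK4 genes were higher there than in any other epithelial gate, with *Cdkn2a* at 53.3 and 52.0 CPM and *Cdkn2b* at 67.5 and 64.8. *Cdkn1c* stood at 31.4 and 31.5 CPM, *Cdkn1a* at 202 and 176, and *Cdkn1b* at 51.6 and 52.7. Beside the luminal ER- cells of the same mice, *Ccnd1*, *Ccnd2*, *Cdkn1a*, *Cdkn1c*, *Cdkn2a* and *Cdkn2b* were higher and *Ccnd3* and *Cdkn1b* lower in both replicates. No test was made of these differences.

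Over all epithelial cells, 0.185 and 0.766% of CTL cells (8 of 4333 and 25 of 3262) and 12.4 and 9.22% of LATS1/2-KO cells (403 of 3240 and 275 of 2982) had at least 4 G2/M genes. At least 1 G2/M gene was seen in 3.39 and 5.27% of CTL cells and in 37.3 and 27.2% of LATS1/2-KO cells. At least 8 were seen in 0.0231 and 0.215% against 2.78 and 2.11%, and the highest number in 1 cell was 14, in LATS1/2-KO replicate 1. The excess therefore stood at every number from 1 to 10, the most seen in a CTL cell. At the lowest numbers the part of free RNA was not tested. Endothelial cells, none of which reached 4 G2/M genes, held G2/M UMIs at 99.4 and 60.0 CPM in LATS1/2-KO. In CTL they held 15.6 and 16.7 CPM at the same depth.

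**Figure D4:**
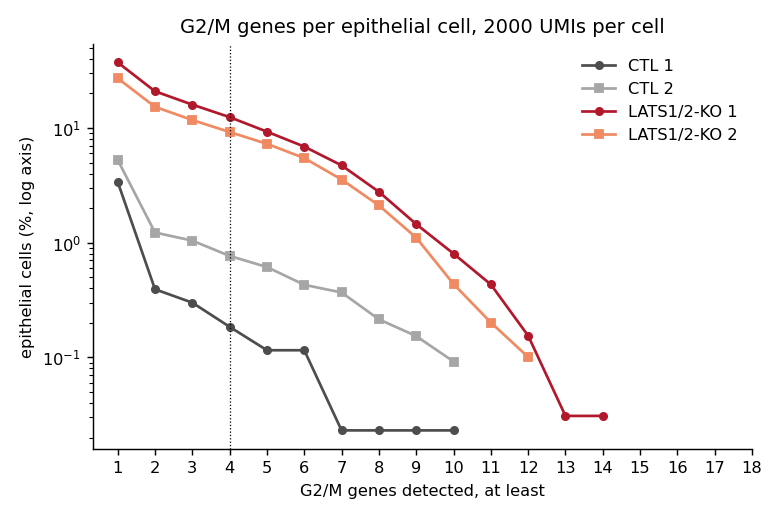
Share of epithelial cells (y axis, %, log scale) in which at least the number of G2/M genes on the x axis was detected at 2000 UMIs per cell, for the 4 libraries. The dotted line marks the limit of 4, where CTL stands at 0.185 and 0.766% and LATS1/2-KO at 12.4 and 9.22%.

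Few cells passed both phase limits. At least 4 of the 15 S phase genes were seen in 2.99 and 2.38% of LATS1/2-KO epithelial cells and in 0.162 and 0.674% of those of CTL. Among LATS1/2-KO cells with at least 4 G2/M genes, 7.94 and 10.5% also had at least 4 S phase genes, against 2.29 and 1.55% of the rest. The CTL shares were higher among such cells, at 12.5% (1 of 8) and 32% (8 of 25), against 0.139 and 0.432% of the rest. In the G2/M cells of LATS1/2-KO, *Ccnd1* stood at 616 and 636 CPM, above the 374 and 293 of the remaining epithelial cells. *Cdkn1a* stood at 69.9 and 47.7 CPM there, below the 190 and 183 of the rest. *Cdkn2b* was lower too, at 23.2 and 26.5 against 44.3 and 37.6 CPM, while *Cdkn2a* stood at 24.1 and 19.8 against 25.6 and 24.3, and *Cdkn1b* at 67.0 and 69.3 against 66.5 and 70.1. *Pcna* stood at 72.5 and 71.0 CPM in G2/M cells and 43.4 and 46.3 in the rest. G2/M cells were deeper, with median UMIs of 15892 and 21022 against 7737 and 8298, and these values, from all UMIs of the cells, are a description with no test. Low-marker cells made up 55.8 and 61.5% of the G2/M cells of LATS1/2-KO, so the values also carry the mix of gates, and its part was not tested. In CTL, with 8 and 25 G2/M cells, *Ccnd1* stood at 289 and 210 CPM in them and at 199 and 278 in the rest. *Cdkn1a* stood at 283 and 177 CPM in them and at 251 and 280 in the rest, so the CTL replicates went opposite ways for both genes.

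In the sums over all epithelial cells, 34 of the 41 genes were higher in LATS1/2-KO and 1 was lower, where 30.7% of 14660 genes tested were called higher and 28.7% lower. All 18 G2/M genes rose (median log2 fold change 3.42), with *Ccnb1* (4.60) and *Plk1* (4.11) among the largest, and so did 12 of 15 S phase genes (median 1.33). *Ccnd2* was called here at 0.749 and 1.22 against 7.66 and 8.88 CPM (2.87 ± 0.258, adjusted p = 0.000543). *Cdkn1c* was called as well, at 7.86 and 8.11 against 19.3 and 25.7 CPM (1.29 ± 0.152, adjusted p = 0.00123). *Cdkn2a* stood at 0.727 and 1.12 against 25.2 and 23.5 CPM (4.51, adjusted p = 9.21e-05) and *Cdkn2b* at 1.78 and 2.73 against 39.9 and 35.5 (3.86, adjusted p = 0.000127). *Cdkn1a* fell by 0.91 on the log2 scale (adjusted p = 0.000639). *Ccnd1* (0.49, adjusted p = 0.0545), *Ccnd3* (-0.02, adjusted p = 0.864) and *Cdkn1b* (-0.11, adjusted p = 0.310) were not called. These sums also carry the different mix of gates, such as the low-marker cells that CTL nearly lacks, and its part was not tested.

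In luminal ER+ cells, the hormone-sensing lineage, none of the 33 S phase and G2/M genes was called by edgeR (1 at an unadjusted p under 0.05, and 0 by DESeq2), and 3 of the 40 genes tested were. Of the 11961 genes tested, 11.6% were called higher and 10.4% lower. The CTL libraries lay far apart. *Mki67* stood at 1.95 and 33.7 CPM in CTL and at 18.3 and 29.1 in LATS1/2-KO (0.32 ± 1.08, adjusted p = 0.864). *Top2a* stood at 3.70 and 50.5 against 25.9 and 44.0 CPM (0.27, adjusted p = 0.879), and *Cdk1* at 2.09 and 29.7 against 21.9 and 41.5 (0.89, adjusted p = 0.562). The groups overlapped for these 3 genes, with CTL replicate 1 the lowest library each time. *Ccnb2*, cyclin B2, had the largest estimate of the phase lists (1.91 ± 0.93, adjusted p = 0.183). *Mcm5* (-1.29, adjusted p = 0.278), *Mcm3* (-1.08, adjusted p = 0.267) and *Mcm4* (-1.003, adjusted p = 0.0889) had the lowest. At 2000 UMIs per cell, 0 of 1102 and 19 of 821 CTL cells had at least 4 G2/M genes, shares of 0% (up to 0.334) and 2.31% (1.40 to 3.59). In LATS1/2-KO there were 4 of 338 and 4 of 112, or 1.18% (0.323 to 3.002) and 3.57% (0.982 to 8.89). Of the 25 such epithelial cells of CTL replicate 2, 19 were luminal ER+.

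Which CTL mouse is used decides the luminal ER+ result. Without CTL replicate 2, 22 genes were called higher, 17 of them G2/M genes, at a background of 13% of genes called higher. Without CTL replicate 1, the estimate of *Top2a* turned to a decrease (-0.63) and that of *Mcm5* was -1.97. The calls made on all 4 mice were *Cdkn2a*, at 2.02 and 2.75 against 11.6 and 14.9 CPM (2.41 ± 0.327, adjusted p = 0.00483), *Cdkn2b*, at 3.21 and 5.49 against 24.6 and 27.4 (2.54 ± 0.291, adjusted p = 0.00277), and *Ccnd3*, at 57.7 and 63.3 against 42.5 and 44.0 (-0.51 ± 0.124, adjusted p = 0.0294). Of these, *Ccnd3* was lost without CTL replicate 2 (adjusted p = 0.0885) or either LATS1/2-KO replicate (0.0962 and 0.0891) and in DESeq2 (0.122). *Ccnd1* stood at 249.5 and 359 against 206 and 283 CPM, *Cdkn1a* at 96.4 and 111 against 105 and 78.0, *Cdkn1b* at 51.7 and 57.8 against 76.7 and 70.6, and *Cdkn1c* at 3.56 and 1.79 against 4.65 and 3.32, and none was called. *Ccnd2* did not pass the filter, at 0.489 and 0.824 against 0.664 and 14.9 CPM, with LATS1/2-KO replicate 2 far above the rest. *Cdkn1b* was called higher with library totals (0.44, adjusted p = 0.0479) and at a 10% mitochondrial limit (0.45, adjusted p = 0.0397). LATS1/2-KO gave 341 and 113 luminal ER+ cells against 1154 and 828 in CTL, and the 9 luminal ER+ markers summed to 2651 and 2776 CPM against 6132 and 5368, and the part of this in the result was not tested.

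In basal cells, the contractile outer layer, 17 of the 33 genes tested were higher in LATS1/2-KO and 2 lower, where 18.3% of 9539 genes were called higher and 16.9% lower. The filter on low counts left 12 of the 18 G2/M genes, and since CTL basal cells were nearly empty of these transcripts, a gene passed it through LATS1/2-KO. With no filter, 16 of the 18 were called, at a background of 14% called higher. *Cdk1* had 0 UMIs in both CTL libraries and 67 and 110 in LATS1/2-KO, at least 12.7-fold higher against a floor of 3 UMIs over the group. *Birc5*, which guards chromosome alignment and cell survival, had 0 UMIs in CTL and 60 and 106 in LATS1/2-KO, at least 11.9-fold higher. *Mki67* had 0 and 4 UMIs against 42 and 109, *Ube2c* 0 and 1 against 79 and 242, and *Top2a* 5 and 3 against 67 and 97. At 2000 UMIs per cell, 0 of 139 and 0 of 133 CTL basal cells had at least 4 G2/M genes, with upper limits of 2.62 and 2.74%. In LATS1/2-KO it was 9 of 335 (2.69%, 1.24 to 5.04) and 10 of 375 (2.67%, 1.29 to 4.85), so the intervals overlapped. The G2/M UMIs summed to 32.4 and 37.6 CPM in CTL and 234 and 191 in LATS1/2-KO at that depth, beside the endothelial sums given above. Only 2 of 13 S phase genes tested were called, *Rrm1* (1.01 ± 0.306, adjusted p = 0.0199) and *Rrm2* (2.56 ± 0.599, adjusted p = 0.00464), and *Ccne1* had the lowest estimate of the list (-0.76, adjusted p = 0.257).

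The regulators of basal cells changed in both directions. *Ccnd1* stood at 19.8 and 10.4 CPM in CTL and at 180 and 144 in LATS1/2-KO (3.29 ± 0.278, adjusted p = 1.14e-06). *Ccnd2* stood at 21.6 and 43.3 CPM in CTL and at 39.5 and 33.8 in LATS1/2-KO, and *Ccnd3* at 37.8 and 55.5 against 48.1 and 42.3, both with overlap and no call. *Cdkn2a* had 0 UMIs in CTL and 30 and 22 in LATS1/2-KO, at least 3.73-fold higher, and *Cdkn2b* had 0 and 1 against 43 and 65 (adjusted p = 0.000824). *Cdkn1c* fell from 48.7 and 64.2 to 21.5 and 17.7 CPM (-1.66 ± 0.257, adjusted p = 0.000235). *Cdkn1b* fell from 84.7 and 81.5 to 52.3 and 59.0 CPM (-0.70 ± 0.179, adjusted p = 0.00783). *Cdkn1a*, at 178 and 151 against 177 and 128 CPM, was not called (-0.24, adjusted p = 0.330) except without LATS1/2-KO replicate 1 (-0.50, adjusted p = 0.0480). *Cdkn1b* was not called in DESeq2 (adjusted p = 0.0994) or without CTL replicate 1 (0.0551), nor *Cdkn2a* without CTL replicate 2 (0.0539). The count of 19 genes called became 9 without the deepest 5% of cells and 4 at 2000 UMIs per cell, and it also fell without LATS1/2-KO replicate 2. The shares over all genes in these fits are not given, so these counts have no background beside them. The basal gate held 154 and 142 CTL cells with median depths of 3330.5 and 3752.5 UMIs, against 344 and 384 at 5781 and 6214.5. Basal markers summed to 8880 and 9651 CPM in CTL and 8619 and 9107 in LATS1/2-KO, but the epithelial markers, which include the luminal keratins *Krt8* and *Krt18*, to 1961 and 1162 against 10211 and 10949, and the part of this in the result was not tested.

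The change in LATS1/2-KO was itself compared between lineages, with the mouse as a block. Between luminal ER- and luminal ER+ cells, 24 of 41 genes differed. For 23 the change was more positive in luminal ER- cells, 12 of them G2/M and 8 S phase genes, and for 1, *Cdkn1a*, it was more negative (-1.47, adjusted p = 0.000132). Of 13713 genes, 6.8% differed in the first direction and 10.2% in the other. *Ccnb1* differed by 3.995 (adjusted p = 0.00194), *Cdk1* by 3.42 (adjusted p = 0.00244) and *Mcm5* by 3.26 (adjusted p = 0.00491). Fewer genes differed without LATS1/2-KO replicate 1 or CTL replicate 2, more without CTL replicate 1, and 7 with no block for the mouse. The shares over all genes in these fits are not given, so these counts have no background beside them. Between luminal ER- and basal cells, 8 genes differed, 5 more positive and 3 more negative in luminal ER- cells, against 6.83 and 13.3% of 13288 genes. *Ccnd1* was the clearest (-3.34 ± 0.27, adjusted p = 9.63e-09), followed by *Cdkn1a* (-1.48 ± 0.197, adjusted p = 9.64e-06). None of the 18 G2/M genes differed between these lineages by this test (0 also at an unadjusted p under 0.05), and with few basal UMIs in CTL their standard errors ran as high as 6.13 for *Aurkb*.

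In endothelial cells, which line the vessels, no G2/M gene passed the filter on low counts. Of the 11 genes tested there, 4 were called, all lower, where 5.89% of 6655 genes were called lower. *Ccnd1* stood at 248 and 128 CPM in CTL and 36.4 and 26.7 in LATS1/2-KO (-2.51 ± 0.333, adjusted p = 2.91e-05). *Ccnd2* stood at 291 and 460.1 against 59.0 and 85.1 CPM (-2.32 ± 0.271, adjusted p = 6.95e-06). *Cdkn1a* stood at 909 and 1181 against 559 and 579 CPM (-0.82, adjusted p = 0.0208), and *Cdkn1c* at 58.1 and 81.8 against 15.7 and 25.7 (-1.69, adjusted p = 0.0131). Each of these had both LATS1/2-KO libraries below both CTL libraries, as had 27.9% of all genes tested, and CTL held 38 and 34 endothelial cells. *Mcm7* (1.704, adjusted p = 0.231), *Tyms* (0.84, adjusted p = 0.460) and *Pcna* (-0.08, adjusted p = 0.933) had the highest estimates. No call was left with no filter on low counts, and calls were also lost when any 1 library was left out. DESeq2 left 2, with *Cdkn1a* (adjusted p = 0.0625) and *Cdkn1c* (0.157) lost. The shares over all genes in these fits are not given.

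Fibroblasts had 0 of 14 genes called by edgeR (1 at an unadjusted p under 0.05, and 0 by DESeq2), against 5.39% of 7985 genes called in either direction. The highest estimates were *Mcm7* (2.56 ± 1.22, adjusted p = 0.261), *Cdkn2b* (2.38, adjusted p = 0.345) and *Tyms* (1.95, adjusted p = 0.346), and the lowest *Ccne1* (-1.54, adjusted p = 0.235), *Ccnd1* (-0.89, adjusted p = 0.449) and *Ccnd2* (-0.86, adjusted p = 0.126). At 2000 UMIs per cell, 1 of 268 and 4 of 777 LATS1/2-KO fibroblasts had at least 4 G2/M genes, shares of 0.373% (0.00945 to 2.06) and 0.515% (0.140 to 1.31). CTL had 0 of 51 and 0 of 18, which allows up to 6.98 and 18.5%, so a difference was not detectable at this depth. The fibroblast result changed without LATS1/2-KO replicate 2, and no share over all genes is given for that fit. Lymphocytes had 0 of 11 genes called by edgeR (0 at an unadjusted p under 0.05, and 0 by DESeq2), against 1.53% of 3009 genes. Their estimates ran from *Ccnd3* (-0.48 ± 0.454), *Mcm3* (-0.45) and *Mcm4* (-0.40) to *Ccnd2* (0.18), *Mcm6* (0.27) and *Mki67* (0.71 ± 0.628), all with adjusted p from 0.822 to 0.989. *Ccnd2* was abundant in lymphocytes, at 384 and 409 CPM in CTL and 330.4 and 539 in LATS1/2-KO. In LATS1/2-KO, 13 of 186 and 12 of 267 macrophages had at least 4 G2/M genes, or 6.99% (3.77 to 11.7) and 4.49% (2.34 to 7.72). These cells held G2/M UMIs at 422 and 337 CPM, above the 234 and 191 of LATS1/2-KO basal cells. CTL had 6 and 5 macrophages at this depth, too few to compare, and neither macrophages nor perivascular cells were tested.

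Within LATS1/2-KO, luminal ER- cells with at least 1 *EYFP* UMI (EYFP+) were compared with the rest (EYFP-) at 2000 UMIs per cell. EYFP+ cells had at least 4 G2/M genes in 26.4% of cases in replicate 1 (23 of 87, 17.6 to 37.0) and 13.4% in replicate 2 (15 of 112, 7.69 to 21.1). EYFP- cells did in 9.92% (141 of 1421, 8.42 to 11.6) and 5.14% (77 of 1498, 4.08 to 6.38). EYFP+ was the higher in both mice, with intervals that did not overlap within a mouse. EYFP+ cells were 5.77 and 6.96% of these cells, a cell without an *EYFP* UMI can still be recombined, and replicate 2 carries 2 reporter alleles. In the sums, with the mouse as a block, 4 of 37 genes tested were higher in EYFP+ cells and 0 lower, against 0.674% of 9205 genes called higher. They were *Mki67* (1.71 ± 0.28, adjusted p = 0.00158), *Ccnb1* (1.90 ± 0.351, adjusted p = 0.00472), *Birc5* (1.15, adjusted p = 0.0414) and *Ube2c* (1.11, adjusted p = 0.0461). Before thinning, EYFP+ cells had a median of 12834 and 14759 UMIs and EYFP- cells 7532 and 7995.5, and the part of cell size in the difference was not tested. The count ran from 0 of these genes, in DESeq2, with no block or with at least 2 *EYFP* UMIs, to 35 without thinning. The shares over all genes in these settings are not given, so the counts have no background beside them.

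In the low-marker cells EYFP+ cells had at least 4 G2/M genes in 19.2 and 16.7% of cases and EYFP- cells in 22.2 and 20.5%, with overlapping intervals, and the difference between the gates was not tested. There *Cdkn1a* was the 1 gene of the lists called higher in EYFP+ cells (0.70, adjusted p = 0.00283), against 0.708% of 8056 genes. Over all epithelial cells, an alternative added after seeing the data, 19 genes were higher, against 7.38% of 10767 genes. They included *Ccnd1* (0.74, adjusted p = 1.51e-14), *Cdkn2a* (1.87, adjusted p = 3.79e-12), *Cdkn2b* (1.36, adjusted p = 2.57e-10) and *Cdkn1a* (0.47, adjusted p = 0.000218). EYFP+ cells were 21.02 and 31.4% of the low-marker cells, so the whole-epithelium count also carries the mix of gates.

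**Figure D5:**
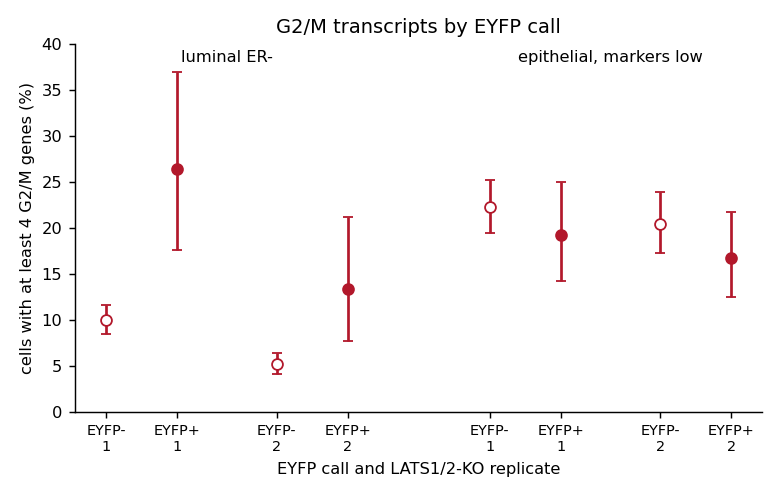
Share of LATS1/2-KO cells with at least 4 G2/M genes at 2000 UMIs per cell (y axis, %) by EYFP call and replicate (x axis), in luminal ER- cells and in epithelial cells low in lineage markers. Filled points are EYFP+, hollow points EYFP-, with 95% Clopper-Pearson intervals, and EYFP+ lies above EYFP- in both replicates of luminal ER- cells (26.4 against 9.92% and 13.4 against 5.14%) but not in the low-marker cells.

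Other genes of the cycle, from lists that the 41 do not include, were read in luminal ER- cells beside the background of 28.2% higher and 26.6% lower. Of 30 further replication genes, 24 were higher and 1 lower, with a median log2 fold change of 1.246, from *Slbp* (-0.52) and *Pola1* (-0.10) to *Rad51ap1* (3.79) and *Tk1* (3.81). *Slbp*, the histone stem-loop binding protein, was the 1 that fell. Of 32 further mitosis genes, 30 were higher and 0 lower (median 3.04), from *Cks2* (0.29) and *Cks1b* (0.43) to *Hmmr* (4.37) and *Cdca3* (4.59). The transcription factors and kinases upstream split. Of 23 cell cycle regulators tested, 12 were higher and 3 lower (median 0.47), with *Foxm1*, the mitotic transcription factor, at 4.23 and *E2f8*, a repressor of the E2F family, at 3.42. The retinoblastoma gene *Rb1* (-1.27) and the INK4 member *Cdkn2c* (-0.82) had the lowest values. Of 12 p53 response genes, 5 were higher and 5 lower (median 0.09), from *Btg2* (-1.79) and *Sesn2* (-1.32) to *Gdf15* (0.77) and *Phlda3* (0.93). Of 7 YAP/TAZ targets, 6 were higher and 0 lower, from *Cyr61* (-0.10) and *Amotl2* (0.37) to *Ctgf* (4.74) and *Ankrd1* (5.71).

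The same lists in basal cells, beside 18.3% higher and 16.9% lower, gave 4 higher and 1 lower of 20 replication genes, 9 and 0 of 13 mitosis genes, 1 and 2 of 14 regulators, 1 and 2 of 11 p53 response genes and 4 and 0 of 7 YAP/TAZ targets. As with the G2/M list, a gene low in CTL passed the filter through LATS1/2-KO, and with no filter 7 and 1 of 30 replication genes and 17 and 0 of 32 mitosis genes were called, beside 14% of all genes higher. In luminal ER+ cells, beside 11.6% higher and 10.4% lower, they gave 0 and 0 of 29 replication genes, 0 and 0 of 30 mitosis genes, 2 and 0 of 22 regulators, 1 and 0 of 12 p53 response genes and 3 and 0 of 7 YAP/TAZ targets. At an unadjusted p under 0.05 the luminal ER+ counts of replication and mitosis genes were 0 and 2.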

How the data were processed

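The authors' deposited files hold raw UMI counts per gene and barcode for 4 libraries (10x Genomics 3' v3), not normalized. Their matrix headers name Cell Ranger 6.1.2, while the submitters' processing notes name 3.1.0 and build mm10. A barcode counted as a cell at over 500 genes detected and a mitochondrial share below 20% (46810771, 42630666, 38792520 and 44758376 UMIs in CTL replicates 1 and 2 and LATS1/2-KO replicates 1 and 2). Each cell was gated by its mean log-normalized level of fixed marker lists. A cell past the limits of more than 1 tissue class was left out, except for the pairs fibroblast with perivascular and lymphocyte with macrophage. Such a cell went to the class that was at least 1.25 times higher relative to its limit, and otherwise was left out. A cell under all tissue limits counted as epithelial if past the basal limit with at least 2 of *Krt5*, *Krt14*, *Krt17*, *Trp63* and *Oxtr* detected. No doublet caller was run. UMIs were summed per gate and library and tested with edgeR 4.0.16 (R 4.3.3) by its quasi-likelihood F test after TMM scaling and filterByExpr, with Benjamini-Hochberg adjusted p-values over all genes tested and a threshold of 0.05, where each library held at least 20 cells. CPM are UMIs of a gene per 1000000 UMIs of the gate and library. Shares used cells with at least 2000 UMIs, thinned without replacement to 2000 UMIs (numpy 2.4.6, seed 11), and intervals from scipy 1.17.1. Scripts were tested on simulated data.

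The members, the lists, the gate limits and the tests were chosen with earlier results of these data known. Named were all D-type cyclins and inhibitors, *Pcna*, *Mcm2*, *Mcm5*, *Mcm6*, *Rrm2*, *Ccne1*, *Ccne2*, *Mki67*, *Top2a*, *Cdk1*, *Ccnb1*, *Ube2c* and *Plk1*, the 3 largest and 3 smallest changes per lineage tested, and 2 of each end for every further list. Other genes were named after their values were seen. Alternatives were DESeq2 1.42.0, edgeR with RLE factors, unfiltered genes, a block for the replicate number, each library left out, thinned cells, a 10% mitochondrial limit, a stricter gate and no deepest 5% of cells. Library totals and EYFP in other gates were added after seeing the data. The labels name no batch.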

Additional observations from a re-analysis of the deposited data

Results flagged for a closer look

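The change in LATS1/2-KO differed between lineages for 32 gene and lineage pairs in a direct test of the difference (edgeR, mouse as block, adjusted over all genes tested). Each value is the log2 fold change in luminal ER- cells minus that in the other lineage. Against luminal ER+ cells, 23 of the 41 genes differed upward and 1 downward, beside 6.8 and 10.2% of 13713 genes. Against basal cells, 5 differed upward and 3 downward, beside 6.83 and 13.3% of 13288 genes. Those 8 genes are 19.5% of the 41, against 20.1% of all genes tested, so their number is not above the background.

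Against luminal ER+ cells, the change of 8 S phase genes was more positive in luminal ER- cells: *Mcm2* (2.694, adjusted p = 0.00121), *Mcm3* (3.064, 0.00139), *Mcm4* (1.581, 0.00527), *Mcm5* (3.264, 0.00491), *Mcm6* (0.879, 0.0482), *Mcm7* (1.484, 0.00928), *Rrm1* (1.226, 0.0372) and *Rrm2* (2.774, 0.0105). The same held for 12 G2/M genes: *Mki67* (2.616, 0.0235), *Cdk1* (3.424, 0.00244), *Ccna2* (2.979, 0.0109), *Ccnb1* (3.995, 0.00194), *Ccnb2* (2.128, 0.0463), *Birc5* (2.977, 0.0115), *Ube2c* (2.891, 0.0380), *Aurkb* (3.571, 0.00215), *Plk1* (3.167, 0.0306), *Cdc20* (2.187, 0.0159), *Cdca8* (2.393, 0.00569) and *Tpx2* (3.11, 0.0113). *Ccnd3* (0.9236, 0.00164), *Cdkn2a* (2.017, 0.0252) and *Cdkn2b* (1.266, 0.0279) also differed upward, and *Cdkn1a* differed downward (-1.468, 0.000132). In CTL replicate 2, 19 of 821 luminal ER+ cells had 4 or more G2/M genes, against 0 of 1102 in CTL replicate 1. CTL replicate 2 stands in these differences, and its part was not tested beyond leaving it out. Fewer genes differed then, and the share over all genes in that fit is not given.

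Against basal cells, *Mcm3* (1.681, adjusted p = 0.0299), *Mcm7* (1.531, 0.00331), *Cdc6* (2.696, 0.0266), *Ccne1* (1.868, 0.0206) and *Cdkn1c* (2.009, 0.000527) changed more positively in luminal ER- cells. *Pcna* (-0.9273, 0.0225), *Ccnd1* (-3.344, 9.63e-09) and *Cdkn1a* (-1.48, 9.64e-06) changed more negatively.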

How the results depend on the processing

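Counts of genes called in luminal ER- cells (36), in all epithelial cells (35) and in lymphocytes (0), and of those that differed between luminal ER- and basal cells (8), stayed within 1.5 times under every alternative run. In basal cells (19 called) the count was 4 at 2000 UMIs per cell, 9 without the deepest 5% of cells and 12 to 18 with 1 library left out. In endothelial cells (4) it was 2 in DESeq2, 0 with no low-count filter and 0 to 2 with 1 library left out, and in fibroblasts (0) 0 to 2. In luminal ER+ cells (3) it was 2 to 22 with 1 library left out. The difference between luminal ER- and luminal ER+ cells (24) gave 15 at 2000 UMIs, 7 with no replicate block and 3 to 33 with 1 library left out. EYFP+ against EYFP- cells (4) gave 0 in DESeq2, with at least 2 EYFP UMIs and with no replicate block, 7 with RLE, 9 at the 10% mitochondrial limit or the stricter gate, 35 without thinning, 19 in all epithelial cells and 1 in low-marker cells. *Top2a* in luminal ER+ cells ran from -0.63 without CTL replicate 1 to 3.108 without CTL replicate 2. The cause was not tested. The shares over all genes in these alternatives are not given here, so the counts have no background beside them.

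Deviations of same-numbered libraries correlated over genes at -0.069 in epithelial, -0.026 in luminal ER-, 0.040 in luminal ER+ and 0.030 in basal cells. With 2 mice a group this check cannot decide whether same-numbered mice were handled together. With the replicate block, 15 genes were called in luminal ER+ cells, and no other count moved by over 1.5 times. The share over all genes in that fit is not given.

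Differences in the share of cells with at least 4 G2/M genes (LATS1/2-KO minus CTL, percentage points) scaled with depth and with the number of genes asked for. At 1000 UMIs, 4000 UMIs, all UMIs, at least 2 genes and at least 6 genes, they were 4.739, 17.38, 19.92, 17.28 and 5.902 in epithelial cells (10.35 at the settings reported), 3.208, 14.18, 16.71, 13.81 and 4.207 in luminal ER- cells (8.057), 1.366, 4.686, 5.932, 5.684 and 1.813 in basal cells (2.677), and 0.05568, 0.5614, 0.9819, 1.319 and 0.1931 in fibroblasts (0.444). Basal cells gave 2.809 at the 10% mitochondrial limit, 2.552 with the stricter gate, 1.527 without the deepest cells and 2.667 to 2.687 with 1 library left out. Fibroblasts gave 0.2165, 0.1974 and, with 1 library left out, 0.3731 to 0.5148. Luminal ER+ cells (1.22) gave 3.07 with at least 2 genes, 0.1046 without the deepest cells, 0.06318 without CTL replicate 1, 2.377 without CTL replicate 2, 2.414 without LATS1/2-KO replicate 1 and 0.02631 without LATS1/2-KO replicate 2. With at least 2 genes, perivascular cells 3.02 and endothelial cells 1.449. Lymphocytes (5.54, with 9 cells in LATS1/2-KO replicate 1) gave -1.156 at 1000 and 13.69 at 4000 UMIs, 1.163 without the deepest cells, 1.049 without LATS1/2-KO replicate 1 and 10.03 without LATS1/2-KO replicate 2. Macrophages (-12.59, from 6 and 5 CTL cells) gave -15.71 at 4000 UMIs, -8.628 not thinned, -9.13 and -5.035 with at least 2 and 6 genes, -16.64 with the stricter gate and 3.509 without the deepest cells.

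Of the values of named genes under alternatives, 782 kept direction and call, 37 lost a call, 26 gained one and 1 reversed. Fits on thinned fibroblasts and lymphocytes, on lymphocytes in the stricter gate, and on perivascular cells and macrophages were not run, since a library held under 20 cells. P-values of LATS1/2-KO against CTL rest on the spread between 2 mice a group, moderated over all genes. Those of the differences between lineages compare sums of the same mice, with the mouse as a block. Those of EYFP+ against EYFP- cells come from sums within 2 LATS1/2-KO mice, so they do not measure a spread between groups of mice.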
